A study of Mus musculus with 6 samples.

Results

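The genes described here encode the proteins of the cytosolic ribosome, in the livers of mice with and without a human c-Src transgene. They were chosen by name: every gene whose mouse symbol is Rpl or Rps followed by a number, with an optional letter, l or copy digit, and Rplp0, Rplp1, Rplp2 and Rpsa, with the S6 kinases left out. The RefSeq table lists 85 such protein-coding genes, and 63 of them were matched to a probe through its transcript accession. These 63, 39 of the large and 24 of the small subunit, stand among 34175 features in all, which are 13971 named genes and 20204 unnamed probes. No probe was matched here to the other 22, which include Rpsa and Rps6, the ribosomal protein that S6 kinases phosphorylate.

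Biotin-labelled cRNA, made from the total RNA of livers of C57BL/6 mice aged 14 months, was read on arrays with 1 colour. The wild-type group had 3 arrays (replicates 1, 2 and 4) and the Src-transgenic group 3 arrays (replicates 1, 3 and 4), since the submitters left 1 sample of each genotype out because its array was dim. The transgene is human c-Src, a non-receptor tyrosine kinase, under the mouse metallothionein promoter, which responds to zinc, and the submitters state that zinc was usually not needed. The study asked for genes downstream of Src that might act in liver carcinogenesis. Neither the number of founders nor the presence of tumour in these 6 samples is stated, and since the wild-type samples are numbered only as controls, p-values measure the spread between samples.

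A ribosome has a small subunit, which reads the messenger RNA, and a large subunit, which joins amino acids, and each protein is needed in about the same number of copies. In mammals their messages begin with a run of pyrimidines, the TOP motif, through which mTORC1 and the RNA-binding protein Larp1 set how much of them is translated, so a cell can change ribosome production with little change in message level. Liver is a large producer of secreted protein and holds many ribosomes. In mammalian cells Myc raises the transcription of ribosomal protein genes and ribosome assembly factors, while unassembled Rpl5 and Rpl11 bind Mdm2 and so stabilize p53.

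The start regions of the genes show what they share beside their names. A promoter sequence was matched for 49 of the 63 genes in RefSeq's table of GRCm38.p6, which spans 250 bases before to 50 bases after the annotated start (the first listed start where a gene has several). A run of 8 or more C or T that begins with C and reaches within 15 bases of the start was present in 42.9% of the 49 genes and in 13.8% of 27025 promoters. Each sequence below gives 30 bases before and 30 bases from the start, 5′ to 3′ on the gene's strand, with the longest such run in capitals, or the first of these where runs tie, as at Rps27l. Rps27, Rplp2 and Rpl13a show a long run at the start. Rps27l, Rpl39l, Rpl7l1 and Rpl3l are copies whose values are given further on, with those of Rpl36al, a copy not shown here.
Rps27 (chr3:90213619-90213678, minus strand): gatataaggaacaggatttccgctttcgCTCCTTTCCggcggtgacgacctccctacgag
Rplp2 (chr7:141447621-141447680, plus strand): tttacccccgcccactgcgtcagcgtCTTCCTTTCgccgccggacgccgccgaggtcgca
Rpl13a (chr7:45128716-45128775, minus strand): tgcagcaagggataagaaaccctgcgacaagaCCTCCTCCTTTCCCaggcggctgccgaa
Rps27l (chr9:66946056-66946115, plus strand): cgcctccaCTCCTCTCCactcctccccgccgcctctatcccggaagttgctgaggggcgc
Rpl39l (chr16:10170198-10170257, plus strand): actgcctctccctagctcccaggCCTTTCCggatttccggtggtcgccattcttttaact
Rpl7l1 (chr17:46782627-46782686, minus strand): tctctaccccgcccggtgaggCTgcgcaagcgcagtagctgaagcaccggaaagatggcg
Rpl3l (chr17:24727796-24727855, plus strand): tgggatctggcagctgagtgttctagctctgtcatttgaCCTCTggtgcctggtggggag
The letters CTTTC, which can lie inside the pyrimidine run, were present within 30 bases of the start on the sense strand in 32.7% of the 49 genes, against 7.78% of all promoters. The longest run at Rpl3l and Rpl7l1 is short. Over the whole 300 bases and on both strands, CCGGAA, the core of ETS factor sites, was present in 53.1% of the genes and 15.2% of all promoters, GGGCGG, the core of Sp1 sites, in 61.2% and 35.9%, and ATGGCGG, part of YY1 sites, in 16.3% and 4.19%. TATAA between 40 and 11 bases before the start, on the sense strand, was present in 8.16% against 4.12%. A match describes the letters, not binding. The median log2 change between the groups, transgenic minus wild-type, was -0.01 over the 21 genes with the long pyrimidine run and 0.04 over the 28 without it. Rpl13a, shown for its run, had a log2 change of 0.12 ± 0.33 (SE), and -0.10 without transgenic replicate 4.

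Across the whole series the arrays differed in brightness and evenness. The median probe signal lay between 53.8 and 93.4 for wild-type and between 94.8 and 117 for transgenic samples, and between 62.6% and 71.7% of the probes exceeded the background threshold. Local patches of unusual brightness or dimness held 0.73% to 7.55% of the probes of an array and touched 14 of the 63 genes. Of the hepatocyte markers, 12 of 15 were measured and all 12 were above background on every array. On the log2 scale Src read 6.62 to 7.21 without the transgene and 7.71 to 9.67 with it, and Mt2, a metallothionein gene, 4.88 to 5.85 and 9.68 to 11.06. Transgenic replicate 4 stood apart: Ddx3y, Eif2s3y and Uty, of the Y chromosome, were above background on the other 5 arrays and not on that one, while Kdm5d was above background there too. Values without that array are given for the named ribosomal protein genes, apart from Rpl3l, which was above background nowhere.

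No ribosomal protein message passed the test between the groups. At a limma adjusted p under 0.05 over all features (Benjamini-Hochberg), 0 of the 63 genes were called, where 0% of all features were called, and the smallest adjusted p among them was 0.69. At an unadjusted p under 0.05 there were 0 genes higher, where 4.37% of all features were, and 0 lower, where 2.72% were. The median log2 change, transgenic minus wild-type, was 0.03 over the 63 genes, with quartiles of -0.07 and 0.11, against a median of 0.02 and quartiles of -0.26 and 0.30 over all features. Positive values were found for 36 genes (57.1%), against 51.7% of all features. In bulk liver, fewer cells of a type and less RNA per cell cannot be told apart.

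The intervals say how large a difference these arrays leave room for. In 58 of the 63 genes (92.1%) the 95% interval of the log2 change lay between -1 and 1. On this scaling such an interval excluded a 2-fold difference either way. This held for 48.4% of all features and 66% of those above background on all 6 arrays. It held for 82.6% of mitochondrial ribosomal proteins and 87.5% of initiation factors, lists described below. The exceptions among the 63 included Rps7, at 0.19, and -0.17 without transgenic replicate 4. They also included the 3 genes that were not above background on every array, Rpl26, Rplp1 and Rpl3l. For 16 of the 63 genes the interval lay within a 1.5-fold difference, against 2083 of all 34175 features. Spread between arrays of a group had a median SD of 0.23 for these genes. It was 0.36 over all features and 0.29 over the 19254 features above background on all arrays. Among the related lists described below it ran from 0.19 for other TOP messages to 0.43 for the 5S RNP and p53 list. Initiation factors had 0.23, mitochondrial ribosomal proteins 0.24 and hepatocyte markers 0.12. These sets were not matched for brightness. The median log2 change was 0.02 for the large and 0.07 for the small subunit.

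**Figure D1:**
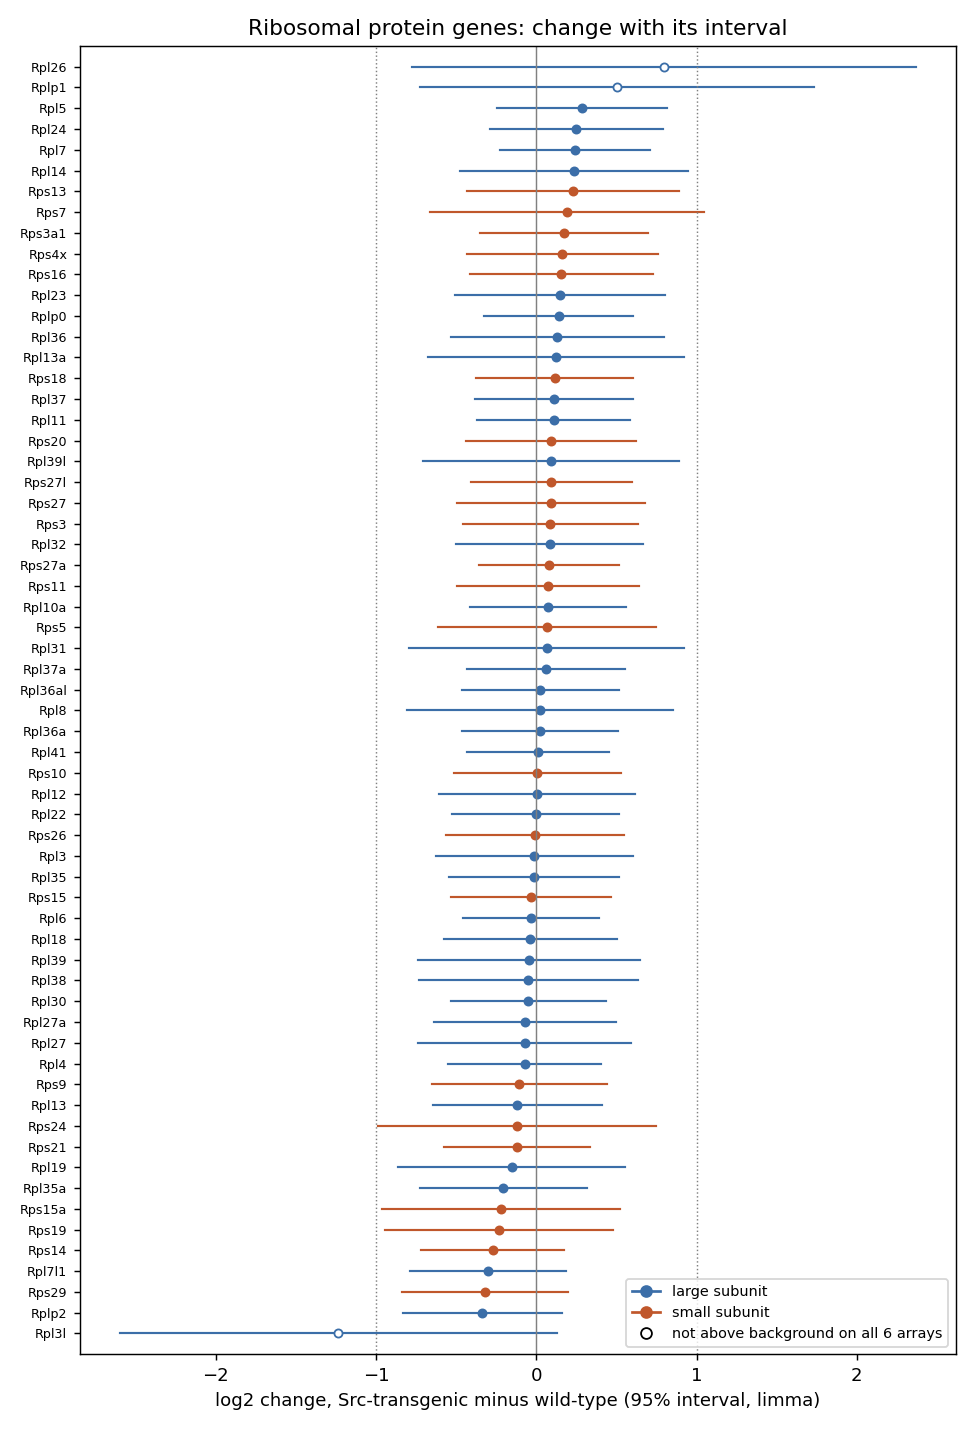
Log2 change (transgenic minus wild-type, horizontal axis) with its 95% limma interval for 62 of the 63 genes, sorted by size, large subunit in blue and small subunit in orange, with open points for the 3 genes not above background on all 6 arrays. Most points lie close to 0 and 58 intervals stay between the dotted lines at -1 and 1.

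The choice of scaling between arrays moved this level more than any other choice tried. With each array scaled to its median probe in place of quantile normalization, the median log2 change of the 63 genes was -0.26, with 7 positive values, while that of all features was -0.08, so the genes lay 0.18 below all features. No gene was called on that scale either (smallest adjusted p = 0.72 by limma). The direction of the whole group of genes thus differed between the scalings. Leaving out transgenic replicate 4 gave a median of -0.09 with 16 positive values, and leaving out transgenic replicate 3 gave 0.13 with 45 positive values.

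Under quantile normalization the arrays of one genotype differed by more than the genotypes. Set against each gene's own mean over the 6 arrays, the median over the 63 genes was 0.12, 0.00 and -0.14 in wild-type replicates 1, 2 and 4, and -0.09, -0.11 and 0.26 in transgenic replicates 1, 3 and 4. Transgenic replicate 4 was thus the highest array and wild-type replicate 4 the lowest, with transgenic replicates 1 and 3 between the wild-type arrays. Transgenic replicate 4 held the highest value of 39 genes (61.9%), against 18.8% of all features, and 41 genes (65.1%) read higher there than on every wild-type array, against 27.6% of all features. On transgenic replicate 3, 26 genes (41.3%, against 26.1% of all features) read lower than on every wild-type array and 4 (6.35%, against 25.3%) higher. On transgenic replicate 1, 16 genes (25.4%, against 17.5%) read lower and 10 (15.9%, against 28.7%) higher.

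**Figure D2:**
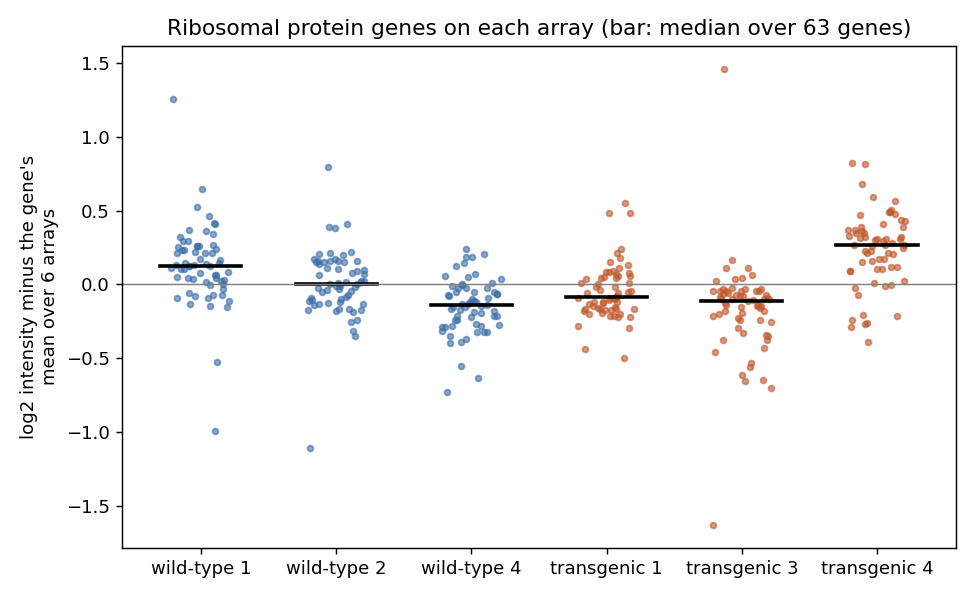
Log2 intensity of each of the 63 genes minus its own mean over the 6 arrays (vertical axis), by array, wild-type in blue and transgenic in orange, with a bar at the median. The medians run from -0.14 on wild-type replicate 4 to 0.26 on transgenic replicate 4, and the points of the groups overlap.

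Part of this order rested on the scaling. With median scaling wild-type replicate 1 was highest, with a median deviation of 0.62 and the highest value of 56 genes (88.9%), against 37.7% of all features. Transgenic replicate 3 was then lowest, at -0.45, with the lowest value of 51 genes (81%), against 20.7% of all features. Transgenic replicate 4 stayed above the other transgenic arrays, at 0.17 against -0.12 and -0.45. After local correction of patches under quantile normalization, transgenic replicate 4 held the highest value of 50 genes (79.4%), against 21.2% of all features. Wild-type replicate 1 was the dimmest array, with a median signal of 53.8. The part of array brightness in these orders was not tested.

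**Figure D3:**
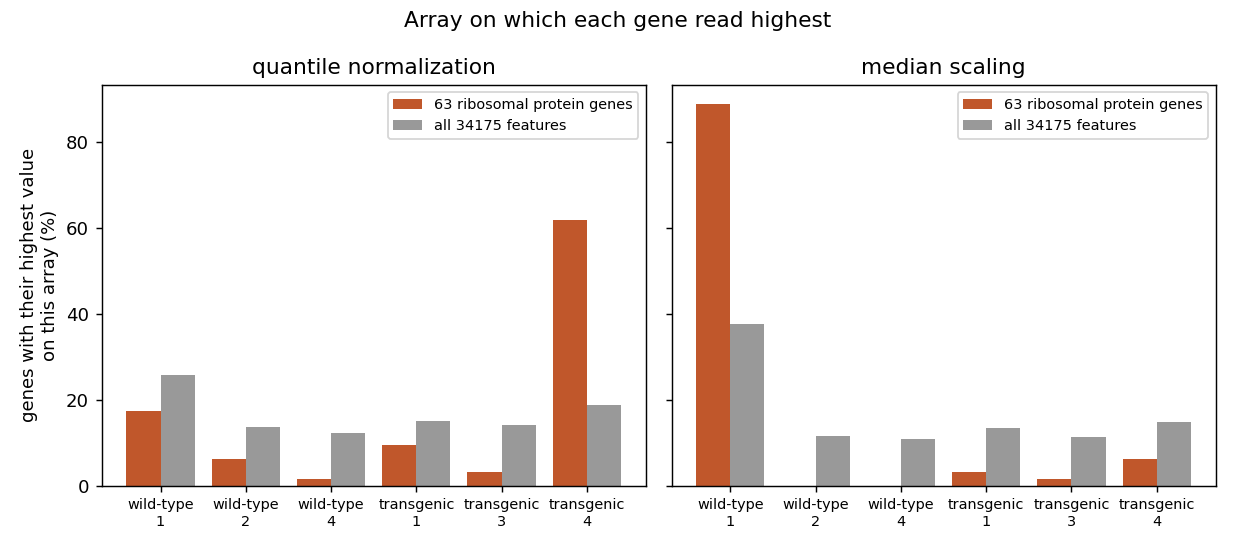
Share of genes (percent, vertical axis) that had their highest value on each array, for the 63 ribosomal protein genes (orange) and all 34175 features (grey), under quantile normalization (left) and median scaling (right). The peak of the ribosomal protein genes moves from transgenic replicate 4, at 61.9%, to wild-type replicate 1, at 88.9%.

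Some other markers also differed on transgenic replicate 4. Markers of macrophages and neutrophils, 11 of 16 measured and 9 above background on all arrays, had a summed normalized intensity between 5900 and 6682 in wild-type livers. Transgenic replicates 1 and 3 gave sums of 5442 and 4952, below that range, and replicate 4 gave 10309, above it. The neutrophil genes differed: on replicate 4 S100a9 read 8.85, above its wild-type values, while S100a8 at 6.96 and Ngp at 7.85 lay within theirs. Hepatocyte markers also summed highest on transgenic replicate 4, at 300698 against 265591 to 289588 on the other arrays. Mpo, the neutrophil peroxidase, was above background on no array. Lymphocyte markers, 11 of 13 measured, summed to 1727 to 2025 in wild-type and 1655 to 2478 in transgenic livers, with the lowest sum on replicate 4. Red cell markers, 5 of 10 measured, summed to 12697 to 21026 in wild-type livers and to 15838 on transgenic replicate 4. Among them Alas2, the first enzyme of heme synthesis in red cell precursors, read 8.03 there and 10.63 to 10.94 on the other arrays. Hba-a1, a hemoglobin gene, read 13.91 there, within its wild-type range of 13.40 to 14.22. The part of these cells in the high values of that array was not tested. The X-linked genes Rpl36a, Rpl39 and Rps4x each read highest there, as did most of the others.

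The stalk of the large subunit, formed by Rplp0 with Rplp1 and Rplp2, recruits the elongation factors. Rplp2 read 13.10, 12.85 and 12.62 (log2 intensity) in wild-type and 12.57, 12.55 and 12.45 in transgenic livers. All its transgenic values lay below all wild-type ones, by a narrow margin, and the log2 change was -0.34 ± 0.20 (SE; limma adjusted p = 0.71). Rplp0, its partner at the base of the stalk, read 12.70, 12.61 and 12.74 against 12.66, 12.79 and 13.02, a log2 change of 0.14 ± 0.19 with overlapping groups. The Rplp1 probe was dim, above background on 0 wild-type and 2 transgenic arrays, at 3.95, 5.32 and 4.80 against 5.49, 4.32 and 5.76. Its groups overlapped, and its log2 change of 0.50 ± 0.51 was 0.13 without wild-type replicate 1 and 0.94 without transgenic replicate 3. The 3 stalk genes thus had values on both sides of 0. With median scaling Rplp0 turned to -0.20. Without transgenic replicate 4 Rplp0 had 0.04, Rplp1 0.22 and Rplp2 -0.30.

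Groups that did not overlap were found for 3 of the 63 genes, all lower in transgenic livers, where 5.9% of all features were lower in this way, and for 0 genes higher, where 10.1% of all features were. Beside Rplp2 these were Rps14 and Rpl7l1. Rps14, a small subunit protein, read 13.51, 13.31 and 13.49 in wild-type and 13.08, 13.12 and 13.29 in transgenic livers. The highest transgenic value lay just under the lowest wild-type value, and the log2 change was -0.27 ± 0.18 (limma adjusted p = 0.72). Rpl7l1, a copy of Rpl7, read 9.49, 9.42 and 9.31 against 9.30, 9.16 and 8.86 on its brightest probe, a log2 change of -0.30 ± 0.20. An exact two-sided permutation test of 3 arrays against 3 cannot give a p below 0.1, which is what such groups give. With median scaling 5 genes did not overlap, all lower, where 7.57% of all features were lower in this way and 8.03% higher. Without transgenic replicate 4 Rps14 had -0.34 and Rpl7l1 -0.18.

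The small subunit gene Rps29, among the genes mutated in Diamond-Blackfan anaemia, was also among the negative values with the smallest p. It read 12.52, 12.53 and 12.36 in wild-type and 12.36, 11.85 and 12.24 in transgenic livers, a log2 change of -0.32 ± 0.21 (limma adjusted p = 0.72). Transgenic replicate 3 was its low array, and without it the value was -0.17, against -0.36 without transgenic replicate 4. Its spot lay in a patch on wild-type replicate 4, and local correction turned the direction, to 0.73. Rpl19, a large subunit gene with a bright probe, read 13.55, 13.64 and 13.37 against 13.65, 12.79 and 13.65, with transgenic replicate 3 far below the rest. It lay in a patch on 3 arrays, and its change of -0.15 ± 0.29 was 0.50 with local correction, -0.54 with median scaling and -0.30 without transgenic replicate 4.

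Of the 6 positive values with the smallest p, 5 belonged to large subunit genes. Rpl5, which carries the 5S RNA and binds Mdm2, read 12.71, 12.82 and 12.46 in wild-type and 12.88, 12.76 and 13.21 in transgenic livers, a log2 change of 0.29 ± 0.22 (limma adjusted p = 0.74). Its partner Rpl11 read 13.18, 12.86 and 12.91 against 12.94, 13.20 and 13.13, a log2 change of 0.11 ± 0.20. Both sets of values overlapped. Rpl7 read 12.76, 12.88 and 12.73 against 13.00, 12.86 and 13.23, a log2 change of 0.24 ± 0.19. Rpl24, the gene mutated in the Belly spot and tail mouse, read 11.81, 11.49 and 11.36 against 11.77, 11.62 and 12.03, a change of 0.25 ± 0.22. The small subunit gene Rps13 read 8.70, 8.40 and 8.28 against 8.45, 8.45 and 9.16, a change of 0.23 ± 0.27. All of these overlapped. Transgenic replicate 4 was the highest array for Rpl5, Rpl7, Rpl24 and Rps13. Without it Rpl5 had 0.15, Rpl11 0.09, Rpl7 0.14, Rpl24 0.14 and Rps13 -0.01, and with median scaling Rpl5, Rpl7 and Rpl24 turned to -0.04, -0.10 and -0.04. Rpl26, whose protein binds the p53 message, read 6.95, 5.20 and 5.59 against 5.82, 7.77 and 6.54, and its log2 change of 0.79 ± 0.65 was 0.26 without transgenic replicate 3, where its spot lay in a patch, and 0.88 without replicate 4.

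The 5 genes with the brightest probes were Rpl41, Rpl27a, Rpl6, Rpl35 and Rpl19, whose values are given above. Rpl41, which encodes the smallest ribosomal protein, read 13.92, 13.80 and 13.92 in wild-type and 13.85, 13.79 and 14.04 in transgenic livers, a log2 change of 0.01 ± 0.18 with a 95% interval of -0.43 to 0.45. Rpl6 read 13.45, 13.56 and 13.41 against 13.49, 13.37 and 13.45, with a change of -0.03 ± 0.18. Rpl35 had -0.01 ± 0.22 and Rpl27a -0.07 ± 0.23. The groups overlapped for all of these, and the brightness of a probe does not rank one message above another. Rps27a, which is made as a fusion with ubiquitin, read 12.88, 12.92 and 12.80 against 13.02, 12.80 and 13.01, a change of 0.08 ± 0.18. With median scaling these genes had negative values, from -0.54 for Rpl19 and -0.45 for Rpl27a to -0.27 for Rps27a. Without transgenic replicate 4 Rpl41 had -0.06, Rpl6 -0.04, Rpl35 -0.17, Rpl27a -0.25 and Rps27a 0.04. The 34 genes not named by a rule had log2 changes from -0.23 to 0.23, 21 of them positive, and 33 had an interval between -1 and 1.

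None of the 5 copies of ribosomal protein genes on the array, set beside their main genes, was called. Rps27l, a p53 target, read 13.07, 13.02 and 12.86 in wild-type and 13.28, 13.14 and 12.82 in transgenic livers, a log2 change of 0.09 ± 0.21. Rps27 read 12.17, 11.88 and 11.95 against 11.85, 11.94 and 12.48, a change of 0.09 ± 0.24. Transgenic replicate 4 was the lowest array for Rps27l and the highest for Rps27, whose spot lay in a patch on transgenic replicate 3 and whose change was -0.29 after local correction. Rpl36al, an autosomal copy of X-linked Rpl36a, read 12.81, 12.52 and 12.69 against 12.82, 12.80 and 12.48, a change of 0.03 ± 0.20. Rpl36a read 12.91, 13.11 and 12.99 against 13.03, 12.82 and 13.24, a change of 0.02 ± 0.20. Again transgenic replicate 4 was the lowest array for the copy and the highest for the main gene. Rpl39l, a copy known from testis, was above background on all arrays, at 6.78, 7.71 and 7.28 against 7.79, 7.23 and 7.03, a change of 0.09 ± 0.33. X-linked Rpl39 read 11.96, 11.59 and 11.62 against 11.52, 11.32 and 12.19, a change of -0.05 ± 0.29. Rpl3l, a copy of heart and skeletal muscle, was above background on no array, so its log2 change of -1.24 ± 0.56 gives no fold, and its main gene Rpl3 had -0.01 ± 0.25. On its brightest probe Rpl7l1 also read lowest on transgenic replicate 4, where Rpl7 read highest. Without that array Rps27l had 0.22 and Rps27 -0.10, Rpl36al 0.14 and Rpl36a -0.08, Rpl39l 0.25 and Rpl39 -0.30, and Rpl3 -0.07.

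Genes with several probes show the error of a single probe. There were 8 such genes, and for 5 of them (Rpl4, Rpl11, Rpl22, Rpl27a and Rpl7l1) the probes gave log2 changes of opposite sign. The 3 probes of Rpl7l1, which carry the same transcript accession, gave -0.30 ± 0.20, 0.14 ± 0.21 and 0.30 ± 0.25, so the absence of overlap held on 1 of the 3 alone, and their mean gave 0.04. Rpl27a gave -0.07 ± 0.23 and -0.02 ± 0.30 on its brighter probes and 0.60 ± 0.31 on the dimmest. Rpl22 gave -0.003 ± 0.22, -0.21 ± 0.33 and 0.03 ± 0.26. The probes of Rpl4 gave -0.07 ± 0.20 and 0.09 ± 0.19, and those of Rpl11 0.11 ± 0.20 and -0.03 ± 0.33. Without transgenic replicate 4 the brightest probe of Rpl22 gave -0.14 and that of Rpl4 -0.08. Positive values on every probe were found for Rpl5, Rpl7 and Rps4x. The brightest probe of Rps4x gave 0.16, and 0.04 without transgenic replicate 4.

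**Figure D4:**
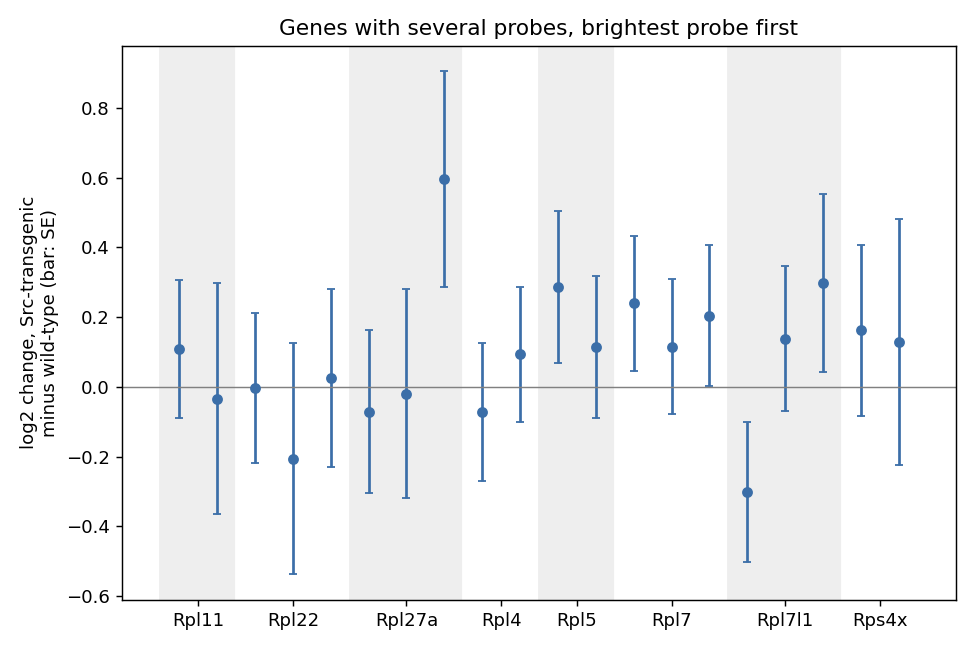
Log2 change (transgenic minus wild-type, vertical axis) of every probe of the 8 genes with more than 1 probe, with its SE, the brightest probe of a gene at the left. Probes of 5 genes fall on both sides of 0, with the widest gaps at Rpl27a and Rpl7l1.

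Genes that act with the ribosome were read from lists. Mitochondrial ribosomal proteins, which build the separate ribosome of that organelle, had 17 positive values among 69 genes and a median log2 change of -0.14, against 0.02 over all features. With median scaling their median was -0.27, close to the -0.26 of the cytosolic genes. None was called (0 at an unadjusted p under 0.05), and 6 of the 69 had groups that did not overlap with lower transgenic values and 1 with higher, against 5.9% and 10.1% of all features. Mrpl55 read 9.48, 9.09 and 9.09 in wild-type and 8.74, 8.83 and 8.76 in transgenic livers, a change of -0.44 ± 0.20 (limma adjusted p = 0.69). Mrpl34, in a patch on 3 arrays, had -1.35 ± 0.60, and -0.36 after local correction. Under quantile normalization the mitochondrial and cytosolic genes peaked on different arrays: transgenic replicate 4 held the highest value of 15.9% of the mitochondrial genes and wild-type replicate 1 that of 53.6%. With median scaling both peaked on wild-type replicate 1, which held the highest value of 85.5% of the mitochondrial and 88.9% of the cytosolic genes, and both were most often lowest on transgenic replicate 3 (50.7% and 81%). The cytosolic median deviation minus the mitochondrial one was -0.11, -0.10 and 0.03 in the wild-type livers and -0.004, 0.06 and 0.28 in the transgenic ones. On transgenic replicate 4 this difference was also the highest with median scaling, at 0.24 against -0.18 to 0.10 elsewhere.

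Lists of translation factors had medians that moved with the scaling. Initiation factors, 32 of 37 measured, had a median of 0.04 with 19 positive values (-0.10 with median scaling), and 0 passed at an unadjusted p under 0.05. The members with the smallest p were Eif3a, above background on 0 wild-type and 2 transgenic arrays, and Eif4g3, at -1.08 ± 0.65 and in a patch on 3 arrays. Elongation and release factors had a median of 0.17 with 6 of 11 positive (-0.02 with median scaling). Eef1a1, whose product carries aminoacyl-tRNA to the ribosome, read 9.38, 9.63 and 9.39 in wild-type and 9.88, 9.66 and 10.16 in transgenic livers, a change of 0.43 ± 0.21 without overlap. Eef2k, the kinase that inhibits elongation factor Eef2, had 1.31 ± 0.55, its highest value lying on transgenic replicate 3. Other TOP messages and ribosome-bound proteins, 8 of 12 measured, had a median of 0.05, and -0.26 with median scaling. The chaperonin subunit gene Cct4 had 0.34 ± 0.21 and the nucleosome assembly gene Nap1l1 -0.27 ± 0.24. These 3 lists also read high on transgenic replicate 4 under quantile normalization. Their median deviations there were 0.17, 0.22 and 0.24, in the order given here, against 0.26 for the cytosolic ribosomal protein genes. That array was the highest for initiation factors and other TOP messages. Ribosome assembly factors had -0.01 there and RNA polymerase I and III genes 0.05.

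Ribosome assembly genes had values near 0 as well. Of 49 assembly factors 29 were positive, with a median of 0.04. At an unadjusted p under 0.05, where 4.37% of all features were higher and 2.72% lower, 0 factors were lower and 1 was higher. That was Nop58, a core protein of the snoRNPs that guide methylation of ribosomal RNA, which read 7.31, 7.37 and 7.34 in wild-type and 8.48, 7.72 and 8.34 in transgenic livers, a change of 0.84 ± 0.25 (limma adjusted p = 0.69). The spot of Nop58 lay in a patch on wild-type replicate 4, and its change was 0.85 after local correction. Rrs1, which acts in large subunit assembly, had 0.87 ± 0.37, and 0.34 after local correction of a patch on transgenic replicate 4. RNA polymerase I and III genes, 25 of 29 measured, had a median of 0.01 (-0.07 with median scaling). At an unadjusted p under 0.05, 1 of the 25 was higher and 1 lower, against 4.37% and 2.72% of all features. These were Gtf3a and Taf1a, both above background on no array.

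Control genes upstream of ribosome production differed more from gene to gene. In the list of mTORC1, TOP control and S6 kinase genes 7 of 23 were positive and the median was -0.17. At an unadjusted p under 0.05, 1 gene was higher and 1 lower, Myc and Mycn, against 4.37% and 2.72% of all features. Myc read 6.40, 6.23 and 5.84 in wild-type and 8.55, 6.47 and 7.36 in transgenic livers, a change of 1.31 ± 0.53 (limma adjusted p = 0.69), with all transgenic values above all wild-type ones. Mycn, above background on 2 wild-type and 0 transgenic arrays, lay in a patch on wild-type replicate 4. The S6 kinase gene Rps6kb2, named after its values were seen, read 9.08, 8.92 and 8.78 against 8.73, 8.61 and 8.31, a change of -0.38 ± 0.21 without overlap, and -0.10 after local correction. In the list of 5S RNP and p53 response genes 6 of 9 were positive and the median was 0.26. Of the 9, 1 gene, Mdm2, was higher at an unadjusted p under 0.05, against 4.37% of all features. Cdkn1a, the p53 target that blocks the cell cycle, had 2.22 ± 0.96 with overlapping groups, and 3.24 without transgenic replicate 4, while Mdm2 was above background on no array. None of these genes passed over all features.

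**Figure D5:**
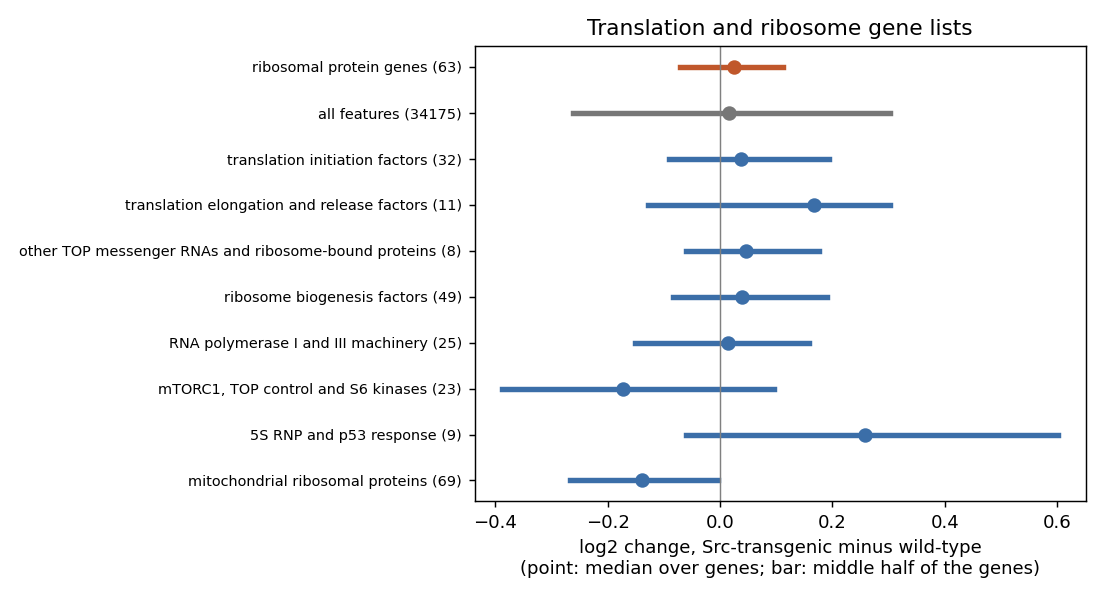
Median log2 change (points, horizontal axis, transgenic minus wild-type) with bars from the lower to the upper quartile of the genes for the 63 cytosolic ribosomal protein genes (orange), all features (grey) and 8 related lists (blue), with the number of genes in brackets. The cytosolic genes lie at 0.03 with the narrowest bar and the mitochondrial ribosomal proteins at -0.14.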

How the data were processed

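Per the file headers, the deposited spot intensity was the linear signal with background removed. A second deposited intensity column was that signal divided by 1 constant per array. The labels and headers name neither scanner nor image software. The 620 control spots were left out. A floor was set at percentile 1 of the positive signals of each array, and log2 values computed from the deposited intensities were quantile normalized. Accessions without versions were matched to RefSeq (GRCm38.p6), and a gene with several probes was represented by the brightest. Above background means over the median of 570 control spots by more than 3 scaled median absolute deviations, with the brightest control left out. A patch was where the median log2 deviation of spots within 4 rows and columns exceeded 0.5 in size.

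The 3 transgenic and 3 wild-type arrays were compared by limma (3.58.1, R 4.3.3) with a two-sided moderated test on 34175 features and Benjamini-Hochberg adjustment, which also gave SEs and 95% intervals. The steps were tested on simulated data. The members, the lists and the rule for named genes were chosen with earlier results of these data known. The rule named the 6 genes with the smallest p in each direction, the 5 brightest and 3 dimmest, stalk and 5S genes, Rps27a, copies with their main genes, genes whose probes disagreed in sign, and 2 genes of each list. A result that the rule names is not reported here. The number of arrays limits the precision. Promoters were read with Python 3.11.15, and figures drawn with matplotlib 3.10.9. Alternatives were other scalings, an offset, a filter on dim probes, an intensity trend, array weights, the mean of probes, a replicate block, patch correction and leaving out arrays, copies or genes in a patch.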

Additional observations from a re-analysis of the deposited data

How the results depend on the processing

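In all 17 alternatives 0 ribosomal protein genes were called. Median scaling and the authors' value table moved the median log2 change to -0.26 each, and the cause was not tested. Each gave 1 gene lower at an unadjusted p under 0.05, against 3.84% and 3.83% of all features. Each also gave 5 genes without overlap, all lower, against 7.57% and 7.54% of all features. The intensity trend gave 1 gene lower at an unadjusted p under 0.05, Rps14, against 2.6% of all features. Replicate numbers 1 and 4 occur in both groups. The check of pairing (correlation of deviations from group means over all features) gave 0.06 for each number. Over the ribosomal protein genes it gave -0.41 for number 1 and -0.14 for number 4. A replicate block by this number rests on replicates 1 and 4 alone, since the other numbers each occur in 1 group. With that block the median was 0.11. There 1 gene was higher at an unadjusted p under 0.05 (Rplp1), against 1.99% of all features. Leaving out single arrays gave medians of -0.09 to 0.13 and 6 to 12 genes without overlap, since fewer arrays make this easier. Higher were 1 to 8 and lower 3 to 10, against 13.7% to 16.8% and 7.93% to 14.7% of all features. At an unadjusted p under 0.05, 0 to 1 gene was lower, against 1.88% to 3.89% of all features. It was Rpl3l, without wild-type replicate 4 or transgenic replicate 1. Leaving out the 14 genes in a patch, an alternative added after the data were seen, gave a median of 0.06. Local patch correction turned the direction of 24 genes. Signal over background limits Rpl3l, Rplp1 and Rpl26.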
